A study of Mus musculus with 14 samples.

Results

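The genes of the constitutive proteasome were followed in the livers of WT and Ythdf1-/- mice with and without concanavalin A (ConA). Members were taken by symbol: a gene counted when its symbol was Psma, Psmb, Psmc, Psmd or Psme followed by a number and, at most, a letter, and the inducible catalytic subunits Psmb8, Psmb9 and Psmb10 were left out. The rule found 41 of the 17656 genes listed, namely 8 of the 20S alpha class, 8 of the 20S beta class, 6 of the 19S ATPase class, 14 of the 19S non-ATPase class, 4 of the 11S class and Psme4 as the only member of the PA200 class. The word constitutive fits most of these genes but not each of them. Psma8 is known as an alpha subunit of germ cells, Psmb11 as a catalytic subunit of the thymus, Psme1 and Psme2 as interferon gamma-responsive activator subunits, and Psmd5, Psmd9 and Psmd10 as chaperones that help build the 19S base and leave it. In these livers Psma8 stood at 0.15 to 1.73 TPM and Psmb11 at 0.01 to 0.26 TPM.

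The proteasome degrades proteins that carry ubiquitin chains. Its 20S core is a stack of alpha rings, which gate the channel, around beta rings, which hold the catalytic sites. The 19S particle binds the core's ends, recognises and strips ubiquitin, and unfolds substrates with a ring of ATPases, while the 11S particle and PA200 are other caps of the same core. The transcription factor NFE2L1 (NRF1) is known to raise subunit genes together when the proteasome is inhibited, and interferon gamma is known to replace the constitutive catalytic subunits by inducible ones.

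RNA of 14 livers was sequenced, each library from a single mouse: 3 WT and 3 KO mice given saline, and 4 WT and 4 KO mice given ConA, where KO stands for Ythdf1-/-. The mice were 8 weeks old C57BL/6 animals, the study's text describes YTHDF1-deficient mice made with CRISPR/Cas9, and ConA, a plant lectin that activates T cells and causes hepatitis, was injected into the tail vein at 8 mg/kg, with liver taken at 8 h. Saline was the vehicle. Values are TPM, a transcript's share of its library after division by transcript length, scaled to a sum of 1000000, so levels of different genes can be compared, whereas the number of reads behind them is unknown and no counting error could be given.

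Several libraries stood apart. Ythdf1 itself was at 12.03 to 13.92 TPM in WT saline, 18.74 to 25.63 in WT ConA, 18.44 to 20.77 in KO saline and 15.54 to 26.17 in KO ConA, so its summed level does not check the genotype labels. WT saline replicates 2 and 3 were closer to each other than any other pair of a group. Their median absolute log2 ratio over 11327 genes was 0.0793, against 0.128 to 0.397 in the other pairs. Over the 100 genes most variable within KO saline it was 0.120, against 0.268 to 1.80, a choice of genes that raises the KO saline pairs. The count of members called in each test that uses WT saline is therefore also given with these libraries averaged to 1. Counts by class, list and marker are given without averaging. WT ConA replicate 3 and KO ConA replicate 3 had the lowest scale factors (0.791 and 0.847, against 0.966 to 1.19 in the others). The livers expressed the hepatocyte markers strongly. Their summed level was 105678 to 132500 TPM in saline and 51870 to 79736 TPM after ConA. The 6 neutrophil markers together were at 5.27 to 11 TPM in saline and 315 to 944 TPM after ConA, 6 Kupffer cell markers at 25.3 to 105 TPM and 4.74 to 28.4 TPM, and the 5 T cell markers listed at 4.29 TPM or less throughout. By limma (adjusted p under 0.05) 22.0% of all genes rose and 31.0% fell after ConA in WT, and 33.9% and 30.7% in KO. Of the markers, 4 of the 6 hepatocyte ones fell after ConA in WT and 5 in KO. In each genotype 5 of the 6 neutrophil markers rose, and 5 and 3 of the 6 Kupffer cell markers fell in WT and KO. The part of these shifts in the results below was not tested, and in bulk liver fewer cells of a type cannot be told apart from less RNA per cell.

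**Figure D1:**
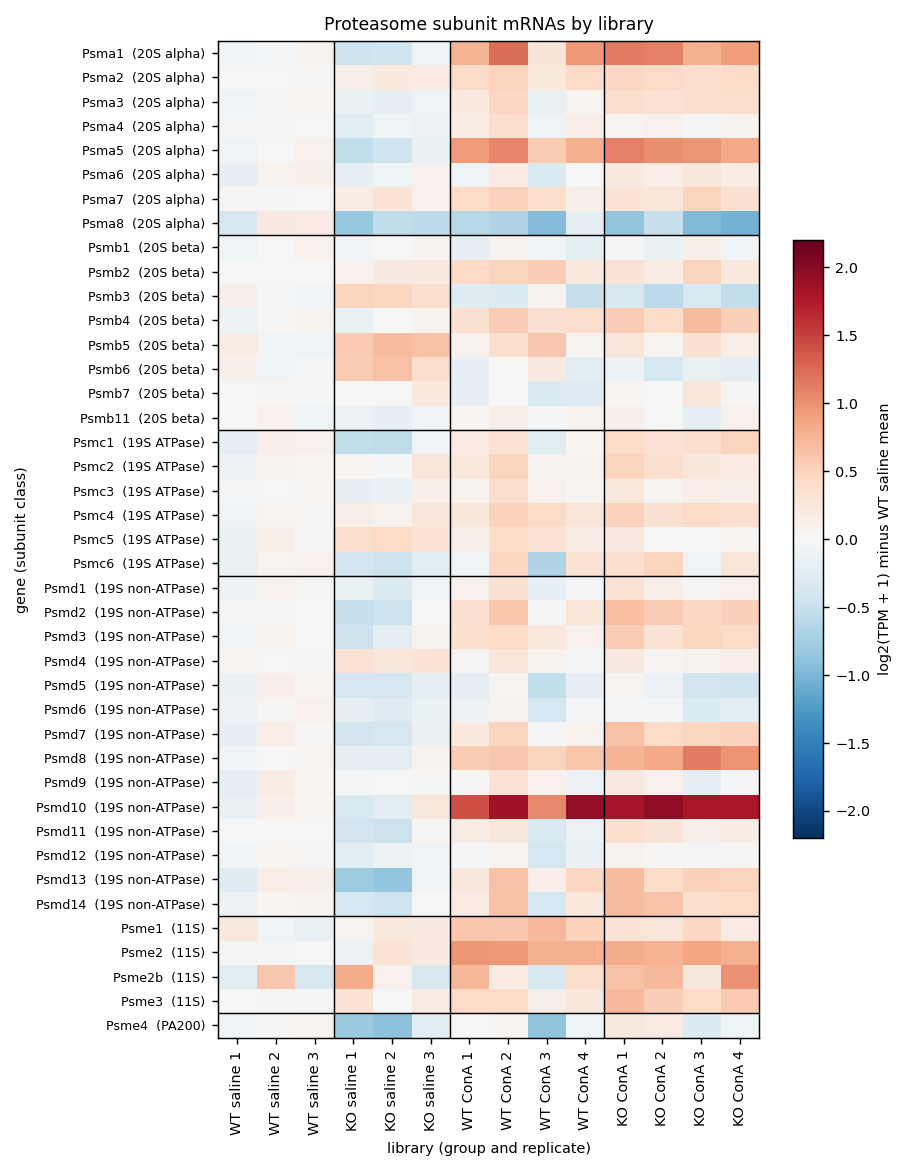
Colour shows log2(TPM + 1) of each of the 41 members (rows, by class) in each of the 14 libraries (columns) minus the mean of the 3 WT saline libraries. Psmd10 has the highest value in each of the 8 ConA libraries, Psma1, Psma5 and Psme2 lie above 0 in them, and Psmb3, Psmb5 and Psmb6 lie above 0 in the 3 KO saline libraries.

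The first question was how the subunit genes responded to ConA in WT livers. With limma on log2(TPM + 1), 11 members rose and 1 fell of 39 that passed a filter on low values (TPM of 1 or more in at least 3 libraries), at an adjusted p under 0.05. Psmb11 and Psme2b did not pass. Over all 10768 genes tested, 22.0% rose and 31.0% fell, and 53.0% were called in either direction. The share of members that rose was 28.2% and the share called in either direction was 30.8%. The median difference of the members was 0.17 on the log2 scale, against -0.07 over all genes. With WT saline replicates 2 and 3 averaged, 7 members rose and 0 fell, against 17.1% of all genes that rose and 42.5% called in either direction. The calls of 6 members (Psma1, Psma5, Psmd8, Psmd10, Psme1 and Psme2) were kept under all 18 alternatives run. Leaving out WT saline replicate 2 left 6 calls, and leaving out WT saline replicate 3 left 7.

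In KO livers, 19 members rose and 4 fell of 39 tested. The members not tested were Psma8 and Psmb11. Over all 10988 genes tested, 33.9% rose and 30.7% fell, so the members' share of 48.7% that rose stood above that of all genes and their share called in either direction (59.0%, against 64.6%) below it. Their median difference was 0.25, against 0.07 over all genes. The calls of 14 of the 23 members were kept under all 14 alternatives run. Members that rose in both genotypes numbered 7 (Psma1, Psma2, Psma5, Psmb4, Psmd8, Psmd10 and Psme2), which is 63.6% of those that rose in WT and 36.8% of those that rose in KO. The share of all genes that rose in both is not given here, so this overlap is no result about the members. With the members summed, their share of a library's TPM was 0.454% to 0.463% in WT saline, 0.520% to 0.614% in WT ConA, 0.467% to 0.508% in KO saline and 0.546% to 0.583% in KO ConA, and no ConA library overlapped a saline one. Gene by gene, ConA and saline livers did not overlap for 58.0% of all genes tested in WT and 64.3% in KO. For the members these shares were 38.5% and 69.2%, so such separation of a gene named below is common among all genes.

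**Figure D2:**
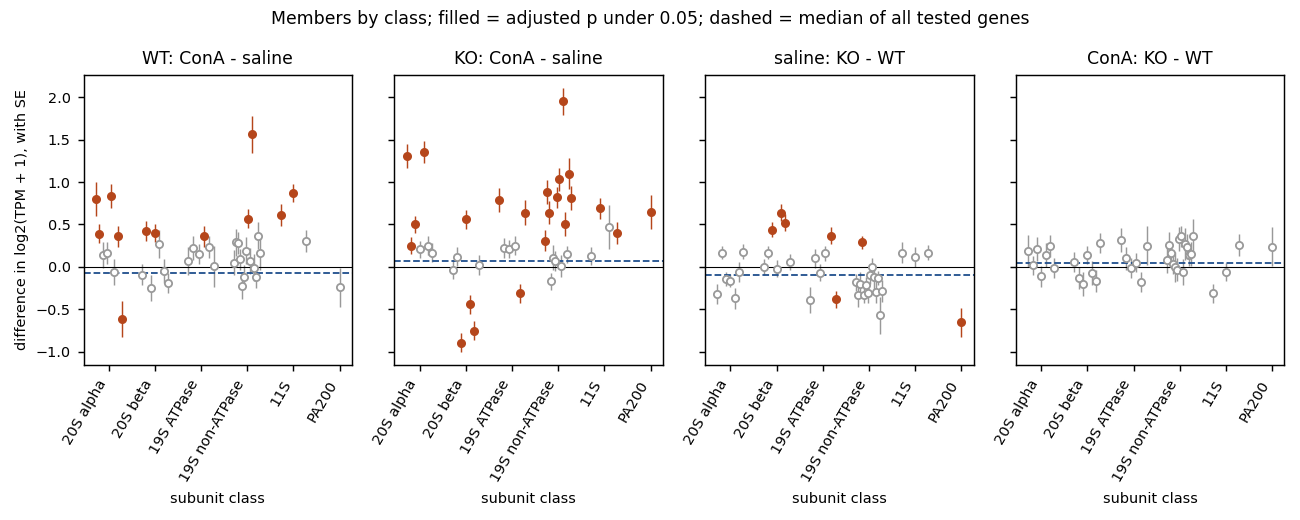
Each point is a tested member, placed by class, with its difference in log2(TPM + 1) and SE in each of the 4 group comparisons. Filled points have an adjusted p under 0.05, and the dashed line is the median of all genes tested. Most filled points lie above the line after ConA, with Psma8 below it in WT and Psmb3, Psmb5, Psmb6 and Psmc5 below it in KO, and the panel of KO ConA against WT ConA has none.

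Among the catalytic subunits, Psmb5 carries the chymotrypsin-like site, Psmb6 the caspase-like site and Psmb7 the trypsin-like site. Psmb5 was at 228, 196 and 189.90 TPM in WT saline, 304, 332 and 317 in KO saline, 217, 259, 307 and 210.23 in WT ConA and 244, 214, 256 and 226 in KO ConA. Psmb6 was at 249, 221 and 225 TPM in WT saline, 339, 361 and 301 in KO saline, 203, 234, 266 and 197 in WT ConA and 211, 176, 206 and 200.42 in KO ConA. For both genes the 3 KO saline livers were above every WT saline and every KO ConA liver, whereas the ConA groups overlapped. Psmb7 stood at 242, 244 and 236 TPM in WT saline, 238, 239.78 and 279 in KO saline, 211, 241, 196 and 197 in WT ConA and 249, 241, 291 and 245 in KO ConA. The 4 groups of Psmb7 overlapped, and it passed no test (difference after ConA -0.19 ± 0.12 SE in WT and 0.02 ± 0.12 in KO).

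After ConA, Psmb5 fell by 0.44 ± 0.11 (SE, adjusted p = 0.00435) and Psmb6 by 0.75 ± 0.11 (adjusted p = 0.000187) on the log2 scale in KO, whereas in WT the differences were 0.27 ± 0.16 (adjusted p = 0.182) and -0.05 ± 0.14 (adjusted p = 0.774). The interaction of genotype and ConA, over all 14 libraries, was -0.71 ± 0.19 for Psmb5 (adjusted p = 0.0459) and -0.70 ± 0.17 for Psmb6 (adjusted p = 0.0382). These were the 2 members called of 40 tested, both lower, where 4.78% of all genes were called, 2.64% higher and 2.14% lower. With WT saline replicates 2 and 3 averaged, 0 members were called (0.247% of all genes), with adjusted p of 0.128 for Psmb5 and 0.115 for Psmb6. Rescaling the libraries, which moved the median interaction of all genes from 0.14 to 0.03, also left 0 members called. Without WT saline replicate 2 or 3, KO saline replicate 1 or 2, or KO ConA replicate 2 or 4 the interaction called 0 members, without KO ConA replicate 1 it called 1, and without WT ConA replicate 4 it called 4, all lower.

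The transcripts of Psmb5 (899 bases, 56.6% GC) and Psmb6 (798 bases, 55.8% GC) were shorter and richer in GC than the median gene (2955 bases, 50.1% GC). For this reason each library was also corrected for these properties of the transcripts, a step chosen after the data were seen. With it, the difference of Psmb5 between KO ConA and KO saline turned from a fall into a rise of 0.28 (adjusted p = 0.0197) and that in WT became a rise of 0.53 (adjusted p = 0.00161). That of Psmb6 in KO became -0.03 (adjusted p = 0.797), and the interactions became -0.24 for both (adjusted p = 0.208 and 0.270). With the correction the interaction called 1 member, Psmc5 (-0.57, adjusted p = 0.0351), and 7.94% of all genes. In the other 13 alternatives of KO ConA against KO saline, both falls were called. Of the 50-base stretches of the Psmb5 transcript, 42.9% were found in no other gene, and its level is uncertain for that reason.

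The subunits Psmb1 to Psmb4 have no catalytic site of their own. Psmb3 was at 302, 274 and 266 TPM in WT saline, 395, 388 and 356 in KO saline, 233, 228, 295 and 198 in WT ConA and 219, 188, 222 and 193 in KO ConA. It fell by 0.89 ± 0.11 in KO (adjusted p = 4.23e-05), the lowest difference of any member there, and the KO saline and KO ConA livers did not overlap. In WT the difference was -0.25 ± 0.15 (adjusted p = 0.191), and leaving out WT ConA replicate 3 made it -0.35 (adjusted p = 0.0183). The Psmb3 transcript has 766 bases, 53.8% GC and 44.2% of its 50-base stretches in no other gene, and with the GC and length correction the fall in KO was 0.27 on the log2 scale (adjusted p = 0.0340). Psmb4 went the other way, with 211, 232 and 241 TPM in WT saline, 205, 230.32 and 240.00 in KO saline, 286, 332, 289 and 299.75 in WT ConA and 332, 303, 369.57 and 327 in KO ConA. Every ConA liver lay above every saline liver, and the rise was 0.40 ± 0.11 in WT (adjusted p = 0.0150) and 0.56 ± 0.11 in KO (adjusted p = 0.00124). Psmb2 rose in WT (0.42 ± 0.12) and Psmb1 passed neither test of ConA. Over the 7 tested beta members, 2 rose and 0 fell in WT (median -0.05), and 1 rose and 3 fell in KO (median -0.03). Of all genes 22.0% rose and 31.0% fell in WT, and 33.9% rose and 30.7% fell in KO, so the 2 of 7 that rose in WT are near that share. After the GC and length correction 3 rose and 0 fell in WT (Psmb2, Psmb4 and Psmb5), and the same 3 rose and Psmb3 fell in KO (medians 0.21 and 0.23). With that correction 31.3% of all genes rose and 32.0% fell in WT, and 34.6% and 35.2% in KO.

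The alpha subunits form the outer rings. In WT 4 of 8 tested rose and Psma8 fell, and in KO 4 of 7 rose and 0 fell, with medians of 0.26 and 0.25. The shares of all genes that rose were 22.0% and 33.9%. Corrected for GC and length, 5 rose in each genotype (medians of 0.37 in both), where 31.3% and 34.6% of all genes rose. Psma5 was at 93.4, 98.2 and 106 TPM in WT saline, 68.1, 72.7 and 89.1 in KO saline, 190.45, 209, 146 and 174 in WT ConA and 214, 202, 195 and 177 in KO ConA. The ConA livers lay above all saline livers, with a rise of 0.84 ± 0.14 in WT (adjusted p = 0.000962) and of 1.35 ± 0.13 in KO (adjusted p = 4.55e-06). Of its 50-base stretches 45.5% occur in no other gene, and the rises with the GC and length correction were 1.01 and 1.43. Psma1 rose by 0.80 ± 0.20 in WT and by 1.31 ± 0.14 in KO. Psma7, the lowest of the class in KO by its difference, stood at 208, 200 and 202 TPM in WT saline, 227, 249 and 217 in KO saline, 275, 288, 266 and 221 in WT ConA and 252, 244, 286 and 255 in KO ConA. In WT every ConA liver lay above the saline livers, whereas in KO the groups overlapped. It rose in WT by 0.36 ± 0.12 (adjusted p = 0.0344, but 0.113 with WT saline replicates 2 and 3 averaged), and its difference in KO was 0.17 ± 0.11 (adjusted p = 0.20). With the GC and length correction it rose in both (0.65 and 0.47, adjusted p of 0.000595 and 0.00308). The call of Psma8 in WT (-0.61 ± 0.21, adjusted p = 0.0342) rests on values under 2 TPM and was lost in 10 of 17 alternatives.

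The alpha subunits, which sit in the ring in equal numbers, had group means that lay closer together after ConA. Whether this exceeds the spread between mice was not tested. Without Psma8, the highest group mean of the 7 others was 2.50 times the lowest in WT saline and 3.01 times in KO saline, and 1.66 and 1.32 times in WT ConA and KO ConA. In WT saline the lowest was Psma1 (97.6 TPM) and the highest Psma4 (244 TPM), and in KO ConA these were Psma1 (196 TPM) and Psma7 (259 TPM). Within WT ConA replicate 3 alone, the levels still ran from 118.92 TPM (Psma1) to 265.61 TPM (Psma7). The beta class without Psmb11 gave 2.57, 3.08, 2.05 and 2.48 times in the same order. The summed TPM of the beta class relative to that of the alpha class was 1.23 to 1.36 in WT saline, 0.959 to 1.36 in WT ConA, 1.58 to 1.68 in KO saline and 0.914 to 1.11 in KO ConA. WT ConA replicate 3 gave the 1.36, and the other 3 WT ConA livers lay between 0.959 and 0.988, below every saline liver.

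**Figure D3:**
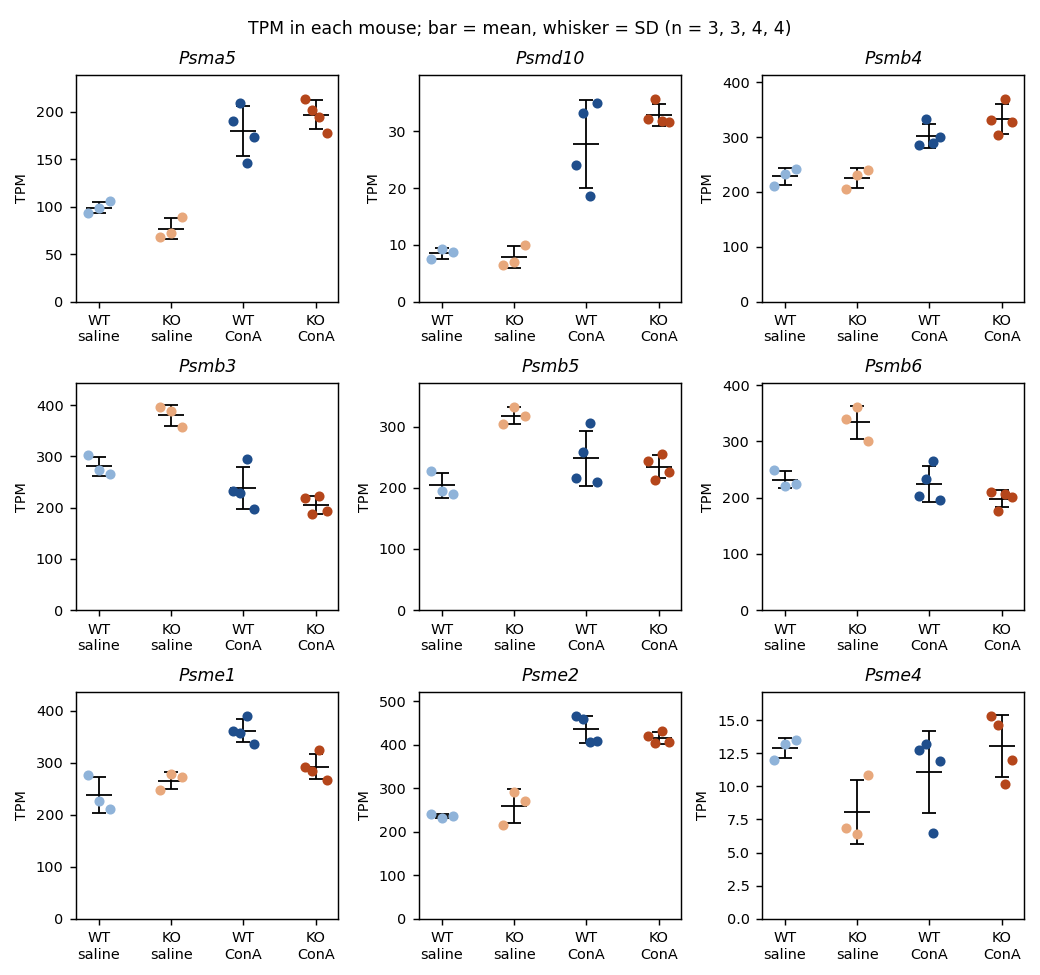
TPM of 9 members in each mouse, with a panel per gene, the mean as a bar and the SD as a whisker (3, 3, 4 and 4 mice). Psma5, Psmd10 and Psmb4 are higher in every ConA liver than in any saline liver, and Psmb3, Psmb5 and Psmb6 are higher in every KO saline liver than in any WT saline or KO ConA liver. Of all genes tested, 58.0% do not overlap between ConA and saline in WT, 64.3% in KO and 42.3% between the saline groups.

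Promoter sequence is shown for the members with the largest rise in KO (Psma5 and Psmd10) and for the catalytic subunits called in the interaction (Psmb5 and Psmb6). Each run is the 250 bases before the RefSeq start (GRCm38.p6), read 5′ to 3′ on the gene's strand, in lower case, with capitals for a match to TGACNNNGC, the core of the antioxidant response element that NRF1 and NRF2 bind.
Psmb5, chr14:54617996-54618245, minus strand: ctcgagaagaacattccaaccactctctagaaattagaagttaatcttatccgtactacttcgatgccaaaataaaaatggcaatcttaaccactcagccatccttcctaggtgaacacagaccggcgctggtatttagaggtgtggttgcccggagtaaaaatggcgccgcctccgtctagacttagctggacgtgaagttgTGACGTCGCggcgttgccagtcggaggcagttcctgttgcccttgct
Psmb6, chr11:70525107-70525356, plus strand: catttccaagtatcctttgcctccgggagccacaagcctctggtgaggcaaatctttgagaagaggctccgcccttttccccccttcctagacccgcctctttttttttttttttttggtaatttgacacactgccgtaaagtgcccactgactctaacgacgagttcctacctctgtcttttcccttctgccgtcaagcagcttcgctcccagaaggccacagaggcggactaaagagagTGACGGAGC
Psma5, chr3:108256676-108256925, plus strand: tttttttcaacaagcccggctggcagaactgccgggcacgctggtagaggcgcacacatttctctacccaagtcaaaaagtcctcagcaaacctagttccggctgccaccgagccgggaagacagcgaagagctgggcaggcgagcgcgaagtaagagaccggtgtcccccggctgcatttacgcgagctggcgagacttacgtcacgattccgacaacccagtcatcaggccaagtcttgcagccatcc
Psmd10, chrX:140956712-140956961, minus strand: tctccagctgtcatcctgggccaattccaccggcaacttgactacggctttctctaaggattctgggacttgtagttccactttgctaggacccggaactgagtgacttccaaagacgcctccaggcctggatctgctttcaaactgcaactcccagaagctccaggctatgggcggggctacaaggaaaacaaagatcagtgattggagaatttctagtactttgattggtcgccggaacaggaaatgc
The match lies 47 to 39 bases before the start in Psmb5 (TGACGTCGC) and 9 to 1 bases before it in Psmb6 (TGACGGAGC), and the other windows have none on either strand. Of the 34 members with an entry, 5 had a match (Psmb5, Psmb6, Psmc6, Psmd9 and Psmd12), which is 14.7%, against 11.5% of 27025 genes. CCAAT, which NF-Y binds, was in 13 of the 34 (38.2%, against 37.5% of genes), 3 times in Psmd10. The sequence TTCNNNGAA was in 0 (8.13% of genes). The core of the interferon-stimulated response element was in 3 (Psmb3, Psmd4 and Psmd9, 8.82% against 3.46% of genes). Both strands were searched and matches describe letters in these windows only. The promoters of Psma8, Psmb1, Psmb2, Psmb7, Psmc3, Psmd3 and Psmd7 were not analysed here.

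The 19S ATPases form the ring that unfolds substrates. In WT 1 of 6 rose (Psmc4, 0.36 ± 0.12), and in KO 2 rose and 1 fell, where 22.0% and 33.9% of all genes rose. After correction for GC and length 4 rose and 0 fell in each genotype (medians 0.39 and 0.46), against 31.3% and 34.6% of all genes that rose. Psmc1 was at 86.9, 108 and 106 TPM in WT saline, 68.5, 67.2 and 94.7 in KO saline, 113, 126, 84.3 and 103 in WT ConA and 133, 125, 127 and 142 in KO ConA. It rose in KO by 0.79 ± 0.14 (adjusted p = 0.000445) with no overlap of KO saline and KO ConA, and its difference in WT was 0.07 ± 0.16. Of its 50-base stretches 82.4% occur in no other gene. Psmc6 was at 69.3, 79.6 and 81.3 TPM in WT saline, 57.5, 54.8 and 64.1 in KO saline, 73.5, 106, 48.1 and 94.8 in WT ConA and 99.4, 109, 72.3 and 91.8 in KO ConA. KO ConA lay above KO saline throughout. Its rise there was 0.64 ± 0.15 (adjusted p = 0.00270), and WT ConA replicate 3 held its lowest value of any liver. Psmc5 was at 114, 138 and 128 TPM in WT saline, 166, 171 and 155 in KO saline, 138, 167, 156 and 141 in WT ConA and 146, 125, 127 and 132 in KO ConA. KO ConA lay below KO saline, and the WT groups overlapped. It fell in KO by 0.31 ± 0.11 (adjusted p = 0.0248), a call made in 7 of 14 alternatives and not with the GC and length correction (-0.13, adjusted p = 0.246), with which it rose in WT (0.45, adjusted p = 0.00459).

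Of the 19S non-ATPase class 2 of 14 rose in WT and 9 of 14 in KO, and 0 fell in either, where 22.0% and 33.9% of all genes rose. The medians were 0.13 and 0.58. With the GC and length correction 7 of 14 rose in each genotype (medians 0.23 and 0.36), where 31.3% and 34.6% of all genes rose. In the interaction 0 of the 14 were called without the correction, so the counts are not shown to differ between genotypes. Psmd10 (gankyrin), the base chaperone, had the largest difference of any member in both genotypes. It was at 7.46, 9.21 and 8.77 TPM in WT saline, 6.49, 7.03 and 10.04 in KO saline, 24.1, 33.2, 18.6 and 34.98 in WT ConA and 32.1, 35.7, 31.7 and 31.7 in KO ConA. Every ConA liver lay above every saline liver, with a rise of 1.56 ± 0.22 in WT (adjusted p = 0.000300) and 1.95 ± 0.16 in KO (adjusted p = 1.53e-06). Its rises with the GC and length correction were 1.70 and 1.86. The other base chaperones did not pass: Psmd5 gave -0.22 ± 0.16 in WT and 0.11 ± 0.15 in KO, and Psmd9 0.07 ± 0.15 and 0.01 ± 0.13. Psmd8, a lid subunit, rose by 0.57 ± 0.11 in WT and 1.03 ± 0.13 in KO. The lid subunits Psmd13 (1.10 ± 0.18), Psmd7 (0.82 ± 0.12) and Psmd14 (0.81 ± 0.14), the last of which removes ubiquitin from substrates, rose in KO, where their values in WT were 0.37 ± 0.16, 0.19 ± 0.16 and 0.17 ± 0.21. Their interactions were 0.72, 0.64 and 0.64 with adjusted p of 0.107, 0.0622 and 0.155. Psmd4, a ubiquitin receptor, was lowest of the class in KO by its difference. It was at 169, 162 and 160.24 TPM in WT saline, 203, 194 and 201 in KO saline, 166, 196, 173 and 161 in WT ConA and 189, 168, 173 and 180.22 in KO ConA. The 4 KO ConA livers lay below the 3 KO saline livers, yet the differences after ConA, 0.09 ± 0.12 in WT and -0.17 ± 0.10 in KO, were not called. With the GC and length correction they were 0.25 in WT (adjusted p = 0.0346, a rise) and 0.02 in KO (adjusted p = 0.830).

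Of the 11S activator genes, Psme2 rose after ConA in both genotypes, Psme1 in WT and Psme3 in KO. Psme1 was at 277, 226 and 211 TPM in WT saline, 247, 278 and 272 in KO saline, 362, 357, 390.38 and 337 in WT ConA and 292, 285, 325 and 267 in KO ConA. Psme2 was at 241, 231 and 236 TPM in WT saline, 216, 290.12 and 269.82 in KO saline, 466, 459, 407 and 407 in WT ConA and 419, 403, 432 and 407 in KO ConA. For Psme2 every ConA liver exceeded every saline liver in both genotypes, whereas for Psme1 the KO groups overlapped and every KO ConA liver lay below the WT ConA livers. Psme2 rose by 0.87 ± 0.11 in WT (adjusted p = 0.000169) and 0.69 ± 0.12 in KO (adjusted p = 0.000496). Psme1 rose by 0.61 ± 0.13 in WT (adjusted p = 0.00342), its difference in KO was 0.13 ± 0.11 (adjusted p = 0.308), and its interaction was -0.47 ± 0.16 (adjusted p = 0.0929). With the GC and length correction Psme1 rose in both (0.96 and 0.72, adjusted p of 0.000106 and 0.000118). Psme3, the nuclear member of the family, was at 21.5, 21.7 and 20.9 TPM in WT saline, 26.6, 21.6 and 24.4 in KO saline, 29.1, 29.5, 23.4 and 25.5 in WT ConA and 35.7, 31.7, 29.2 and 32.5 in KO ConA. ConA livers exceeded saline livers within each genotype. It rose in KO by 0.40 ± 0.13 (adjusted p = 0.0164) and gave 0.31 ± 0.13 in WT (adjusted p = 0.0714). Under the same correction these calls changed places: Psme3 rose in WT (0.36, adjusted p = 0.00803) and gave 0.19 in KO (adjusted p = 0.127). Psme2b was at 0.08, 0.93 and 0 TPM in WT saline, 1.26, 0.36 and 0 in KO saline, 1.11, 0.45, 0 and 0.67 in WT ConA and 0.99, 1.09, 0.52 and 1.57 in KO ConA. Its groups overlapped, and its difference in KO was 0.47 ± 0.26 (adjusted p = 0.143), or 0.92 with the GC and length correction (adjusted p = 0.0176). Only 30.7% of its 50-base stretches and 40.7% of those of Psme2 are in no other gene, and both levels are uncertain for that reason. The summed 11S level relative to the 20S was 0.176 to 0.205 in WT saline, 0.252 to 0.291 in WT ConA, 0.173 to 0.198 in KO saline and 0.235 to 0.243 in KO ConA.

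Psme4 encodes PA200, a nuclear cap. It was at 12.03, 13.2 and 13.5 TPM in WT saline, 6.87, 6.44 and 10.9 in KO saline, 12.8, 13.2, 6.49 and 11.9 in WT ConA and 15.3, 14.7, 10.2 and 12.02 in KO ConA. The lowest values were those of KO saline replicates 1 and 2 and WT ConA replicate 3, and the ConA and saline groups overlapped in both genotypes. It rose after ConA in KO by 0.65 ± 0.20 (adjusted p = 0.0156) and gave -0.24 ± 0.23 in WT (adjusted p = 0.395). Its transcript is long (6491 bases, 43.9% GC), and with the GC and length correction the differences were 0.18 in KO (adjusted p = 0.339) and -0.28 in WT (adjusted p = 0.0246).

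**Figure D4:**
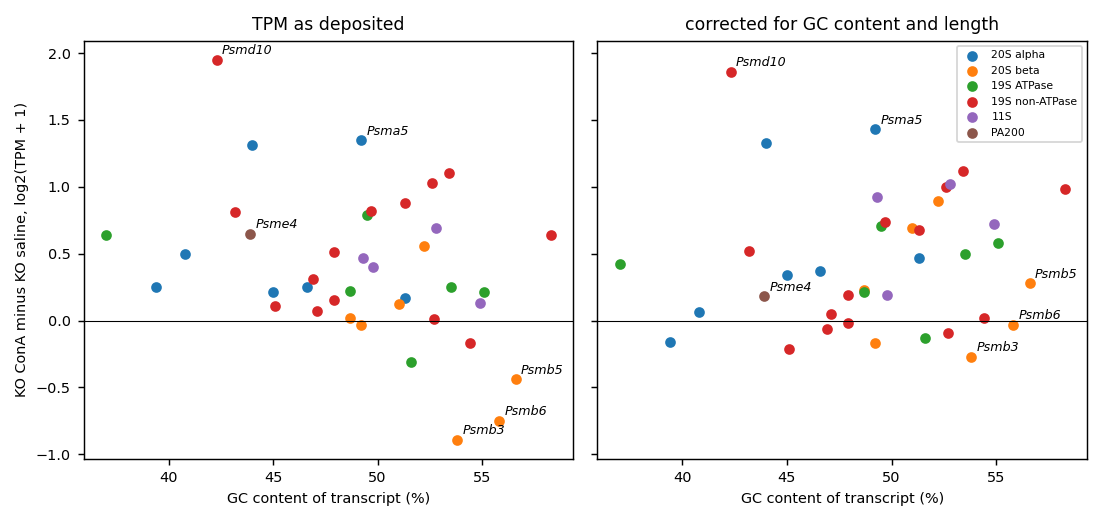
Difference between KO ConA and KO saline in log2(TPM + 1) of each tested member against the GC content of its transcript, as deposited (left) and with each library corrected for GC content and length (right), coloured by class. Psmb3, Psmb6 and Psmb5 lie lowest on the left (-0.89, -0.75 and -0.44) and between -0.27 and 0.28 on the right, while Psmd10 and Psma5 stay highest in both panels.

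Over the 39 members, the KO difference after ConA and the GC content had a Spearman rho of -0.32 as deposited and 0.13 with the correction, and in WT rho was 0.24 and 0.36. With transcript length rho was 0.29 as deposited and -0.27 with the correction in KO, and -0.21 and -0.44 in WT. In WT the correction thus weakened neither association over the members. These points share libraries and are given as a description. With the correction, 22 members rose and 2 fell in WT, where 31.3% of all genes rose, 32.0% fell and 63.3% were called. In KO 22 rose and 1 fell, where 34.6% of all genes rose, 35.2% fell and 69.8% were called. The members' share that rose was then 56.4% in each genotype, and their medians 0.34 and 0.37 (all genes 0.01 in both). Of the members, 17 rose in both genotypes, and the share of all genes that did so is not given here. With WT saline replicates 2 and 3 averaged as well, 18 members rose and 0 fell in WT, and the share that rose was 46.2%. The share of all genes under both steps is not given here.

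The second question was whether the genotypes differed without ConA. Between KO saline and WT saline 5 members were higher (Psmb3, Psmb5, Psmb6, Psmc5 and Psmd4) and 2 lower (Psmc6 and Psme4) of 38 tested, where 6.30% of all genes were higher and 12.9% lower (19.2% in either direction). The differences were 0.64 ± 0.10 for Psmb5 (adjusted p = 0.0149), 0.52 ± 0.10 for Psmb6 (adjusted p = 0.0211), 0.44 ± 0.09 for Psmb3 (adjusted p = 0.0249), 0.37 ± 0.10 for Psmc5 and 0.29 ± 0.08 for Psmd4. For the lower genes they were -0.38 ± 0.10 (Psmc6, adjusted p = 0.0419) and -0.65 ± 0.17 (Psme4, adjusted p = 0.0424). The KO and WT saline livers did not overlap for 44.7% of the 38 members (KO above in 9 and below in 8), the 7 called ones included, against 42.3% of all genes tested. Markers of other cell types also differed between these groups. Of the endothelial markers Pecam1 (0.57 ± 0.14) and Clec4g (0.98 ± 0.26) were higher in KO of 5 tested, of the cholangiocyte markers Krt7 (1.19 ± 0.30) of 3, and of 6 hepatocyte markers Serpina1a was higher (0.78 ± 0.09) and Cyp2e1 lower (-0.82 ± 0.18). The summed cholangiocyte markers ran from 3.97 to 5.39 TPM in the WT livers and from 6.16 to 15.3 TPM in the KO livers, and the endothelial ones from 13.8 to 22.9 and from 22.7 to 39.8 TPM. The Kupffer cell markers summed to 59.7 to 105 and 25.3 to 56.1 TPM, with 0 of 6 called by limma and 3 at an unadjusted p under 0.05. Their part in the members' differences was not tested. The higher transcripts had 766 to 1756 bases and 51.6% to 56.6% GC, and the lower ones 2234 and 6491 bases and 37.0% and 43.9% GC. Over the 38 members rho was 0.49 with GC content and -0.53 with length, and 0.18 and -0.21 with the correction, which left Psma2 as the 1 member called and 8.72% of all genes (0 members with WT saline replicates 2 and 3 averaged as well). Averaging WT saline replicates 2 and 3 alone left 0 members called and 0.526% of all genes. The count was 0 without WT saline replicate 2 or 3, 1 without KO saline replicate 1 or 2, and 15 (5 higher and 10 lower) without KO saline replicate 3. Rescaling the libraries changed the split over all genes from 659 higher and 1350 lower to 744 and 771, and that of the members to 5 higher and 1 lower. KO saline is also the reference of the ConA response in KO, so the high Psmb3, Psmb5 and Psmb6 of those 3 livers enter both comparisons.

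The third question was whether the genotypes differed under ConA. Between KO ConA and WT ConA limma called 0 of 38 members. An unadjusted p under 0.05 was found for 5 of them (13.2%), against 16.7% of all genes tested. The livers of the 2 groups did not overlap for 5.26% of the members, against 10.5% of all genes tested. Over all genes 0.342% were higher and 0.0856% lower (0.428% in all), and 1.94% were called with the GC and length correction, again with 0 members. Rescaling the libraries changed that split from 36 higher and 9 lower genes to 12 and 13. The differences ran from -0.31 ± 0.11 (Psme1) to 0.36 ± 0.12 (Psmd8) and 0.36 ± 0.20 (Psmd14), with a median of 0.12 (all genes 0.05). The count was 0 under every alternative run, with each library left out in turn and with both ConA replicates 3 left out. In simulated libraries of this comparison, with each gene drawn independently, 82.5% of genes changed by 1 on the log2 scale were called. Smaller changes and shifts shared by a whole library were not simulated. Without both ConA replicates 3, the interaction called 6 members, with Psme4 higher and Psmb3, Psmb5, Psmb6, Psmc5 and Psme1 lower. The share of all genes called in that setting is not given here, so this count is no result about the members.

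The inducible catalytic subunits, which stand in for Psmb5, Psmb6 and Psmb7 in the immunoproteasome, rose in both genotypes: Psmb8 by 2.02 ± 0.12 in WT and 2.06 ± 0.12 in KO, Psmb9 by 3.13 ± 0.21 and 2.73 ± 0.17, and Psmb10 by 2.04 ± 0.14 and 1.85 ± 0.15. The TPM ratio of Psmb8 to Psmb5 was 0.219 to 0.254 in WT saline, 0.702 to 0.893 in WT ConA, 0.134 to 0.168 in KO saline and 0.841 to 0.887 in KO ConA. That of Psmb9 to Psmb6 was 0.123 to 0.155, 0.978 to 1.60, 0.0832 to 0.166 and 1.19 to 1.36 in the same order, and that of Psmb10 to Psmb7 0.266 to 0.279, 1.13 to 1.64, 0.229 to 0.337 and 0.868 to 1.07. For each pair the ConA livers lay above all saline livers. The mean log2 ratio rose by 1.78, 3.23 and 2.25 in WT and by 2.53, 3.51 and 1.85 in KO, each with p = 0.0571 in an exact two-sided permutation test, the smallest that 3 against 4 mice can give, and with an adjusted p of 0.0980 over the 12 tests. Between KO ConA and WT ConA the Psmb10 to Psmb7 ratio differed by -0.45 with no overlap (exact p = 0.0286, the smallest that 4 against 4 can give, adjusted p = 0.0980), and the other pairs by 0.06 and 0.04. Between the saline groups the Psmb8 to Psmb5 ratio differed by -0.69 (exact p = 0.10, the smallest that 3 against 3 can give, adjusted p = 0.150).

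**Figure D5:**
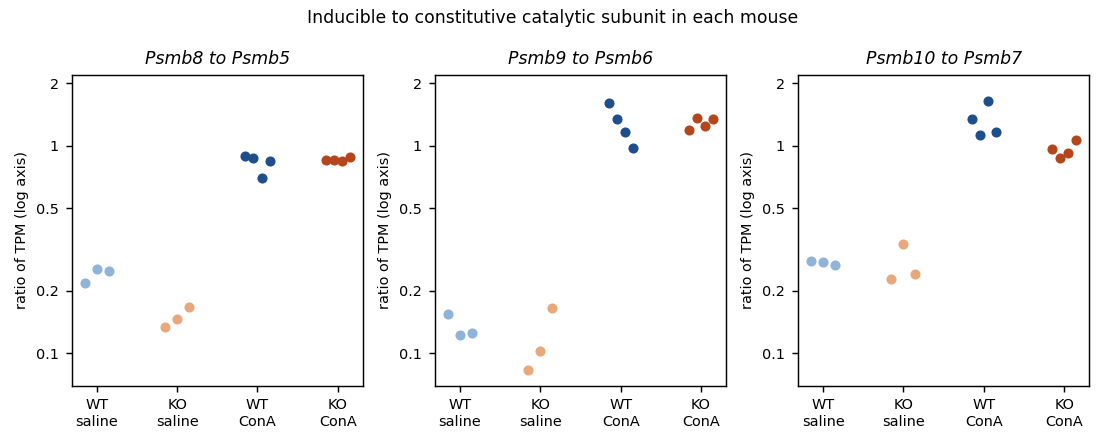
Ratio of TPM of each inducible catalytic subunit to the constitutive one it replaces, in each mouse, on a log axis. ConA livers lie above saline livers in each of the 3 panels, and in the Psmb10 to Psmb7 panel the 4 KO ConA livers (0.868 to 1.07) lie below the 4 WT ConA livers (1.13 to 1.64).

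Genes that serve the proteasome were described by lists. Over all genes tested, 22.0% rose and 31.0% fell after ConA in WT, and 33.9% rose and 30.7% fell in KO. List counts near these shares, such as the 4 of 13 assembly factors that fell in KO, are no result about a list. Of 13 assembly factors and associated proteins 2 rose and 0 fell in WT (median -0.04), and 1 rose and 4 fell in KO (median 0.03). Psmg1 and Psmg3, chaperones of the alpha ring, fell in KO by 0.72 ± 0.14 and 0.62 ± 0.13, and Sem1, a small 19S subunit that the symbol rule does not catch, fell by 0.57 ± 0.12. Txnl1, a thioredoxin bound to the 19S, rose by 0.43 ± 0.16 in WT and 0.47 ± 0.11 in KO. Of 8 genes of the NFE2L1 pathway 2 rose and 1 fell in WT (median 0.13), and 4 rose and 0 fell in KO (median 0.77). Syvn1, a ubiquitin ligase of the endoplasmic reticulum, rose by 3.49 ± 0.23 and 2.26 ± 0.27, Mafk, a partner of NRF1 and NRF2, by 0.63 ± 0.16 and 1.22 ± 0.17, and in KO Nfe2l2 (NRF2) by 1.23 ± 0.14 and Vcp by 0.87 ± 0.14, with 0.45 ± 0.27 and 0.32 ± 0.18 in WT. Of 15 ubiquitin genes and shuttles 3 rose and 2 fell in WT (median -0.23), and 6 rose and 3 fell in KO (median 0.17). Ubb, a polyubiquitin gene, rose by 0.76 ± 0.13 and 0.65 ± 0.11, Zfand2a, a stress-induced proteasome-binding gene, by 0.55 ± 0.19 and 1.23 ± 0.15, Uba6, a ubiquitin-activating enzyme, by 0.58 ± 0.22 and 1.08 ± 0.21, and Rps27a, a ubiquitin fusion, by 0.55 ± 0.10 in KO (0.31 ± 0.13 in WT, adjusted p = 0.0618). Between KO saline and WT saline 1 assembly factor was higher and 1 lower, 0 and 1 genes of the NFE2L1 pathway, and 1 and 1 of 14 ubiquitin genes. Of all genes 6.30% were higher and 12.9% lower there. In these 3 lists 0 genes were called between KO ConA and WT ConA or in the interaction by limma (0.428% and 4.78% of all genes).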

How the data were processed

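Liver RNA of 14 mice was sequenced on a BGISEQ-500 from 1 end, 50 bases a read. The authors deposited 1 table of TPM values for each library, with 2 decimals and a sum of 1000000 over the same 17656 genes. The submitters' processing notes name Bowtie2, RSEM 1.3.1 and GRCm38.p6, whereas the study's methods name STAR and HTSeq, and the annotation is not given in the sources used here. Depth is unknown, so precision rests on the spread between mice, 1 library each.

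Groups came from the sample labels. limma 3.58.1 (lmFit, eBayes with trend, R 4.3.3) was run on log2(TPM + 1) over all genes whose TPM reached 1 in a number of libraries no smaller than the smaller group, with the libraries of the groups compared (all 14 for the interaction), and Benjamini-Hochberg adjusted p under 0.05 was called. The study's count test could not be used on TPM. Differences on this scale understate the changes of genes with low values. Ratios of TPM were compared with exact two-sided permutation tests, adjusted over 12 tests. Lists and classes are described by counts and medians, and Paaf1 and Trac of the lists were not analysed here.

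The members and lists were chosen with earlier results of these data known. Values in every mouse are given for Psmb5, Psmb6 and Psmb7, the 11S members and Psme4, the tested member with the highest and lowest difference in KO ConA against KO saline in each other class, and members called between genotypes or in the interaction; of each list up to 4 genes are named by smallest p in that same comparison. Other settings changed the pseudocount (0.1), the filter (TPM of 5, or none), the scaling (rescaling of libraries by their median ratio) and the libraries (all 14 in the fit, a replicate block, WT saline replicates 2 and 3 averaged, each library left out). Corrections for GC content and length (medians in 20 bins of each, from GENCODE transcripts, for 96.0% of genes) and combinations of these were chosen after seeing the data. The fit was tested on simulated data: of 200 genes changed by 1 on the log2 scale, 72.5% were called in WT ConA against WT saline, 73% in KO ConA against KO saline, 62% in KO saline against WT saline, 82.5% in KO ConA against WT ConA and 52% in the interaction, and data without change gave 0 calls. Each gene was drawn independently, with a spread pooled over the groups. The simulated libraries held no shift shared by many genes and no closely alike pair, so these rates may not hold for the real libraries. Promoters came from RefSeq for 34 members. Python 3.11.15, pandas 2.3.3, SciPy 1.17.1 and matplotlib 3.10.9 were used.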

Additional observations from a re-analysis of the deposited data

Results flagged for a closer look

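The interaction of genotype and ConA was called lower for Psmb5 (-0.71, limma, adjusted p = 0.0459) and Psmb6 (-0.70, adjusted p = 0.0382). These were 2 of 40 members tested, where 4.78% of all genes were called in either direction and 2.14% lower. Whether members were called more often than other genes was not tested. Psmb5 was called in 8 and Psmb6 in 12 of the 25 alternatives run. Neither was called with WT saline replicates 2 and 3 averaged, or with the GC and length correction.

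A single library lay far from the other 3 of its group in 2 of the 79 groups of 4 examined, where chance alone gives about 1 in 20. Psmc3 was at 181.24 TPM in WT ConA replicate 2, against 143.13 to 147.99 TPM in the other WT ConA livers. Psmd10 was at 35.71 TPM in KO ConA replicate 2, against 31.70 to 32.08 TPM in the other KO ConA livers.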

How the results depend on the processing

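The count of members called stayed within 1.5 times the reported one in KO ConA against KO saline (18 to 25 with a library left out) and was 0 throughout in KO ConA against WT ConA. In WT ConA against WT saline it was 12, and became 24 with the GC content and length correction, 7 with WT saline replicates 2 and 3 averaged, with or without rescaling, and 6 to 15 with a library left out. In KO saline against WT saline it was 7, and became 3 without a filter, 2 with all 14 libraries in the fit, 1 with the GC content and length correction, 0 with WT saline replicates 2 and 3 averaged (alone, with rescaling and with the correction) and 0 to 15 with a library left out. In the interaction it was 2, and became 4 with a filter at TPM of 5, 1 without a filter and with the correction, 6 without both ConA replicates 3, 0 with rescaling (also without WT ConA replicate 3) and with WT saline replicates 2 and 3 averaged (alone, with rescaling and with the correction), and 0 to 4 with a library left out. The cause of these shifts was not tested, and the share of all genes called is given above for only some of these settings. Psmb5 in KO ConA against KO saline reversed from -0.44 to 0.28 with the correction. Of 1476 alternative values of the 17 named members, 50 changed sign where neither value was called. With 12 tests of groups this small, the ratio tests could not pass on the adjusted p under any setting, so they say nothing of stability, and the Psmb10 to Psmb7 difference between KO ConA and WT ConA was -0.52 to -0.34 with a library left out.

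Correlations of deviations between same-numbered libraries ran from -0.19 to 0.41. Between the saline groups the same number was the best match for replicates 1 and 2 (0.34 and 0.23). Between the ConA groups it was so for replicate 3 (0.41). Between saline and ConA it was so for WT replicate 2 (0.15) and KO replicate 3 (0.06). For the other libraries a different number matched best. Whether the replicate numbers mark mice handled together was not tested. With a replicate block the interaction called 0 members, and KO saline against WT saline 4 higher and 4 lower. WT ConA against WT saline then called 8 higher and 1 lower, and KO ConA against KO saline 16 higher and 3 lower. With same-numbered libraries paired, the Psmb10 to Psmb7 ratio between KO ConA and WT ConA differed by -0.45. An exact sign-flip test over these 4 pairs gave p = 0.125, the smallest that 4 pairs can give. Depth is unknown, so the members with values under 2 TPM (Psma8, Psmb11 and Psme2b) carry no counting error.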
